A study of Mus musculus with 6 samples.

Results

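Hemoglobin and erythroid genes were read in RNA-seq libraries of mouse liver sinusoidal endothelial cells (LSECs), the fenestrated cells that line the blood channels of the liver. The group held 7 genes of the 60832 rows of the count table: the adult beta globins Hbb-bs and Hbb-bt, the adult alpha globins Hba-a1 and Hba-a2, and Alas2, Slc4a1 and Klf1. They were found by their symbols and had been selected on their CPM (counts scaled to the library's total) in the comparison of resistant with sensitive libraries, so that comparison is given for them as a description with no test. All libraries came from male BALB/c nude mice, bought at 4 to 6 weeks of age, that carried CRCLM (colorectal cancer liver metastasis) xenografts made by injecting HCT116, an established line of human colorectal carcinoma, into the liver. The 3 sensitive libraries were from bevacizumab-sensitive xenografts, and the 3 resistant libraries were from bevacizumab-resistant xenografts. Bevacizumab is an antibody against VEGF-A. The study made its acquired-resistance mice with bevacizumab at 10 mg/kg, given 2 times a week over 7 weeks by its methods (42 days elsewhere in its text), and its vehicle mice received IgG. Which mice gave the sensitive libraries, and whether mice were pooled, was not given in the sources used here. LSECs of both groups were pulled with anti-CD146 beads from liver tissue that held metastases, and the labels state 24 h of culture. The labels do not tie a library to a mouse or a culture, so p-values measure the spread between these libraries, which may be technical.

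Red blood cells carry oxygen on hemoglobin, a tetramer of alpha and beta globin chains that each hold a heme. Erythroblasts, the nucleated precursors, transcribe globin genes at very high levels under factors such as GATA1, TAL1 and KLF1, and reticulocytes still hold globin mRNA after the nucleus is lost. The liver is an erythropoietic organ in the fetus, whereas in the adult mouse erythropoiesis takes place in bone marrow and spleen, and red blood cells pass through the sinusoids that LSECs line. Alas2 encodes the erythroid form of the first enzyme of heme synthesis, Slc4a1 encodes band 3, the main anion exchanger of the red cell membrane, and Klf1 encodes the erythroid Krüppel-like factor that binds CACCC motifs.

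The libraries held 17599326 to 20726684 counts each, so that a gene at 0 in a library could still have a level of up to 0.145 to 0.170 CPM (3 counts). Sensitive replicate 2 stood apart, with a median correlation of 0.872 to the other libraries over log2 CPM, against 0.957 to 0.963 for the rest. The summed CPM of 13 listed LSEC markers was 641 to 1229, while that of 18 macrophage and Kupffer cell markers was 25390 to 39200. Mcam, which encodes CD146, had 6 to 79 counts per library. The study's methods report CD146-positive cells at more than 95% purity by flow cytometry, which reads protein and not RNA.

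The regions upstream of the RefSeq starts of the 4 adult globin genes are shown first, because the globins hold most of the members' counts. Each line gives the 130 bases upstream of the RefSeq transcription start on GRCm38.p6, written along the gene, with motif matches on either strand in capitals. The motifs searched were the CACCC box, the CCAAT box, the GATA factor core GATAA, the TATA box letters TATAAA and their variants, the CATAAA letters and the ATATAA letters.
Hbb-bs, chr7:103827929-103828058, minus strand: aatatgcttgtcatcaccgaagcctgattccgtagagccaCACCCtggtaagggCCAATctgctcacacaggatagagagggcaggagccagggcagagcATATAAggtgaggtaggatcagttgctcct
Hbb-bt, chr7:103813924-103814053, minus strand: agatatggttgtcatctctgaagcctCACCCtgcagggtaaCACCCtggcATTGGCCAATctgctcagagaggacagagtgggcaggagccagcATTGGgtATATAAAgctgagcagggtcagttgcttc
Hba-a1, chr11:32283542-32283671, plus strand: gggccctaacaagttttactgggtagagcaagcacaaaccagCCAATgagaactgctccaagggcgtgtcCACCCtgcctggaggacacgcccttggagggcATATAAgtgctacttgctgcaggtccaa
Hba-a2, chr11:32296362-32296491, plus strand: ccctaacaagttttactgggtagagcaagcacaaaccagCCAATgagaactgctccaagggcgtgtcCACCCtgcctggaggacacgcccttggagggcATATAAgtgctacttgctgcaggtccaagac
All 4 globin windows held the CACCC box, the CCAAT box and the ATATAA letters, and none held the GATAA core or the letters CATAAA. Of 27025 promoter windows of the same length, 33.2% held the CACCC box, 23.2% the CCAAT box and 5.0% the letters ATATAA. The GATAA core was held by 11.7%, the TATAAA letters by 7.3% and the CATAAA letters by 5.7%. ATATAA was added to the motifs after the sequences were read, and it overlaps the TATAAA match of Hbb-bt. The upstream regions of Hba-a1 and Hba-a2 were the same over 247 bases at a shift of 3 bases, with 0 differences.

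The windows of the other 2 members with an entry were the following, with capitals for the same motifs.
Alas2, chrX:150547287-150547416, plus strand: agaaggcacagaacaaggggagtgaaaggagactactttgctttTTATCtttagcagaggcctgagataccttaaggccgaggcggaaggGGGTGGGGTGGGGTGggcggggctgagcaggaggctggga
Klf1, chr8:84901852-84901981, plus strand: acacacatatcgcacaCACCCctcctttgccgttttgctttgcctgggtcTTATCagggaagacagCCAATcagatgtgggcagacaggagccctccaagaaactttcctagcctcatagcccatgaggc
Alas2 held 3 matches to CACCC on the other strand and 1 to GATAA. Klf1 held the CACCC box, the CCAAT box and the GATAA core once each. A match is a run of letters and not a measured binding site.

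In the reference annotation, the copies within each globin pair were close enough in sequence that reads could be counted for either. On GRCm38 with GENCODE M21, Hbb-bs lies at chr7:103826534-103828096 and Hbb-bt at chr7:103812524-103813996, both on the minus strand, with gene starts about 14 kb apart. Hba-a1 lies at chr11:32283511-32284465 and Hba-a2 at chr11:32296489-32297298, both on the plus strand, with starts about 13 kb apart. These GENCODE spans and the RefSeq starts used above differ. The printed upstream windows of Hbb-bs and Hba-a1 lie inside the spans, and those of Hbb-bt and Hba-a2 lie partly inside. The files held no coordinates, and the submitters' processing notes name mm9, so these positions are those of the annotation and not of the authors' alignment. The coding sequences of Hbb-bs and Hbb-bt differed at 1 of 441 bases, and those of Hba-a1 and Hba-a2 at 1 of 426 bases, an identity of 99.8% in both pairs. The stretch around that base is printed for each gene, with the base that differs in capitals.
Hbb-bs, coding bases 382 to 441: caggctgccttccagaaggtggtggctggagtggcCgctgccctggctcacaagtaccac
Hbb-bt, coding bases 382 to 441: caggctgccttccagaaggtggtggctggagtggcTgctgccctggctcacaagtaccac
Hba-a1, coding bases 351 to 410: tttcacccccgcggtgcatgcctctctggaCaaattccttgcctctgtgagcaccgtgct
Hba-a2, coding bases 351 to 410: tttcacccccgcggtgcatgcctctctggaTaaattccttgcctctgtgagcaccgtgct
Of the 100-base windows of the transcripts, 37.4% of those of Hbb-bs, 45.2% of Hbb-bt, 43.5% of Hba-a1 and 25.5% of Hba-a2 occurred in no other gene. The rest occurred only in the other gene of the pair. How reads with several matches were counted is not given in the sources used here, so single-copy values are uncertain and the sums of each pair are given beside them. BALB/c mice carry the d haplotype of the beta globin cluster, whose adult genes are named Hbb-b1 and Hbb-b2, and neither name has a row in the table. The beta sequences and shares of windows above are those of the reference and not of these mice. How reads of the d haplotype genes fell on the Hbb-bs and Hbb-bt rows was not tested.

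The 4 adult globins together were low in all libraries and lower in each resistant library than in each sensitive library. Their summed level was 3.82 CPM in sensitive replicate 1, 11.02 CPM in sensitive replicate 2 and 4.18 CPM in sensitive replicate 3. It was 1.06 CPM in resistant replicate 1, 0.152 CPM in resistant replicate 2 and 0.156 CPM in resistant replicate 3. The groups did not overlap, and the lowest sensitive library was above the highest resistant one. These values rest on 75, 194 and 86 counts in the sensitive libraries and on 22, 3 and 3 counts in the resistant libraries. The mean was 6.34 ± 4.06 CPM (SD, n = 3) in the sensitive and 0.456 ± 0.524 CPM (SD, n = 3) in the resistant group. Pooled over each group, 355 counts against 28 gave a sensitive-to-resistant ratio of 13.1, with a 95% exact counting interval of 8.91 to 20.003. The log2 ratio of the mean CPM, resistant to sensitive, was -3.80, and it was -3.13 without sensitive replicate 2, the library that stood apart, and -5.37 without resistant replicate 1. Intervals and floors here treat reads as independent counts and leave out the spread between libraries. Reads were counted without molecular identifiers, so even the counting error may not be covered in full. In bulk libraries, fewer cells of a type and less RNA per cell cannot be told apart.

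**Figure D1:**
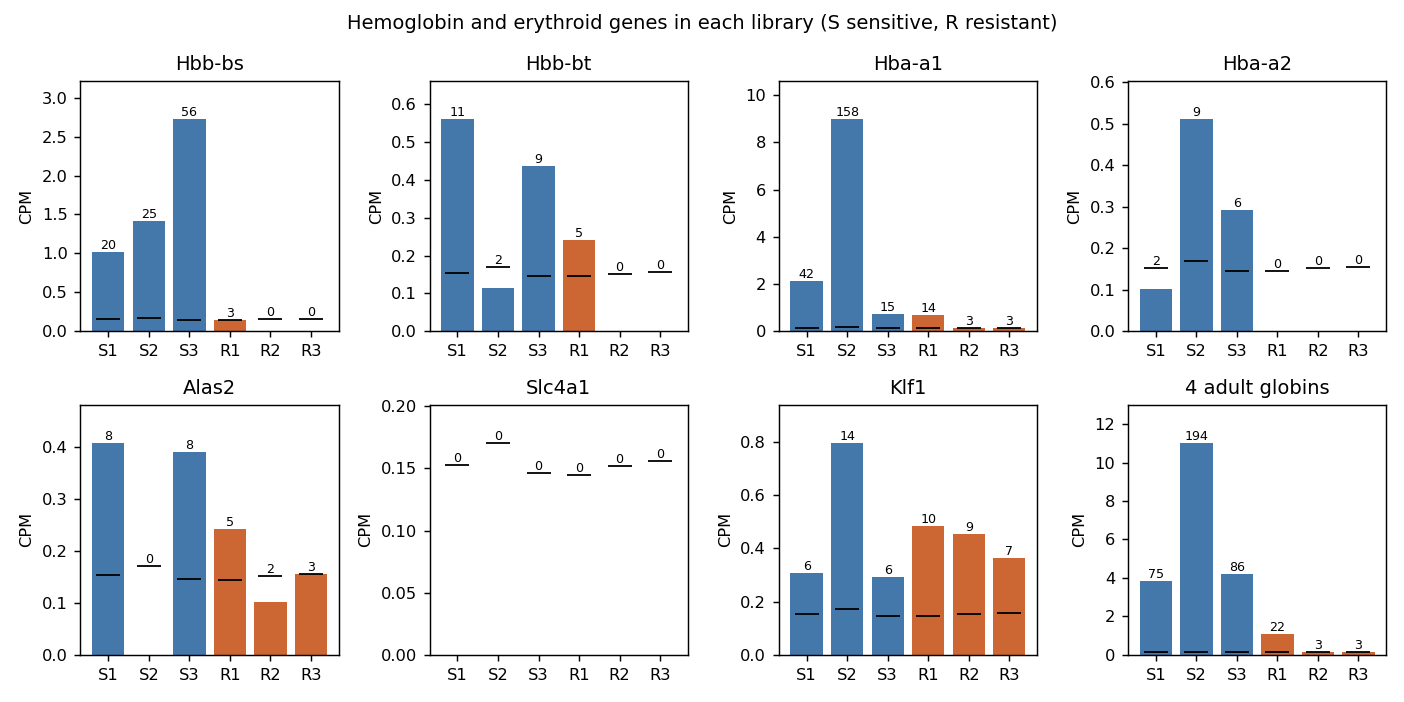
CPM of each of the 7 genes and of the 4 adult globins summed (vertical axes, linear from 0), 1 bar per library, for sensitive replicates 1 to 3 (S1 to S3, blue) and resistant replicates 1 to 3 (R1 to R3, orange). The number over a bar is its count and the black dash is the level of 3 counts. The summed globins were 3.82 to 11.02 CPM in the sensitive and 0.152 to 1.06 CPM in the resistant libraries, whereas Klf1 overlapped between the groups and Slc4a1 had no count.

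The beta chain genes carried 123 counts in the sensitive and 8 in the resistant libraries. Hbb-bs (ENSMUSG00000052305), the row of the beta pair with more counts, had 1.02, 1.42 and 2.72 CPM in sensitive replicates 1 to 3 and 0.145, 0 and 0 CPM in resistant replicates 1 to 3. The groups did not overlap, and the only resistant counts were 3 in replicate 1. Its mean was 1.72 ± 0.892 CPM (SD, n = 3) against 0.0482 ± 0.0836 CPM (SD, n = 3), and the pooled ratio of its 101 to 3 counts was 34.8 with a counting interval of 11.6 to 172. Hbb-bt (ENSMUSG00000073940), the adjacent adult beta gene, had 0.560, 0.114 and 0.438 CPM in the sensitive and 0.241, 0 and 0 CPM in the resistant libraries. Sensitive replicate 2, with 2 counts, was below resistant replicate 1, with 5 counts, so the groups overlapped. Its pooled ratio of 22 to 5 counts was 4.55, with a counting interval of 1.68 to 15.4. The summed beta level was 1.58, 1.53 and 3.16 CPM in the sensitive libraries and 0.386, 0 and 0 CPM in the resistant libraries, a pooled ratio of 15.9 (counting interval 7.82 to 37.6).

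The alpha chain genes carried 232 counts in the sensitive and 20 in the resistant libraries. Hba-a1 (ENSMUSG00000069919) had 2.14, 8.98 and 0.730 CPM in the sensitive libraries and 0.675, 0.152 and 0.156 CPM in the resistant libraries. The groups did not overlap, but sensitive replicate 3 with 15 counts and resistant replicate 1 with 14 counts were close. Sensitive replicate 2 alone held 158 of its 215 sensitive counts. The mean was 3.95 ± 4.41 CPM (SD, n = 3) against 0.328 ± 0.301 CPM (SD, n = 3), and the pooled ratio was 11.1 with a counting interval of 7.02 to 18.6. Hba-a2 (ENSMUSG00000069917) had 0.102, 0.511 and 0.292 CPM, or 2, 9 and 6 counts, in the sensitive libraries and 0 counts in each resistant library. The resistant group as a whole allowed up to 0.0502 CPM (3 counts over its libraries), so against that floor Hba-a2 was at least 5.86-fold higher in the sensitive group. The exact counting interval of the ratio, which also takes in the error of the 17 sensitive counts, starts at 4.26. The summed alpha level was 2.24, 9.49 and 1.02 CPM in the sensitive and 0.675, 0.152 and 0.156 CPM in the resistant libraries, a pooled ratio of 12.0 (counting interval 7.59 to 19.99).

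The balance of alpha and beta counts differed among the sensitive libraries by more than counting error. Alpha globins made up 58.7% of the globin counts in sensitive replicate 1 (exact Clopper-Pearson 95% interval 46.7 to 69.9), 86.1% in replicate 2 (80.4 to 90.6) and 24.4% in replicate 3 (15.8 to 34.9). The intervals of the 3 sensitive libraries did not overlap. In resistant replicate 1 the alpha share was 63.6% of 22 counts (40.7 to 82.8), inside the range of the sensitive libraries. In resistant replicates 2 and 3 all 3 globin counts were from Hba-a1, which allows a share down to 29.2%. Hba-a1 made up 95.5%, 94.6% and 71.4% of the alpha counts in sensitive replicates 1 to 3, and Hbb-bs made up 64.5%, 92.6% and 86.2% of the beta counts.

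**Figure D2:**
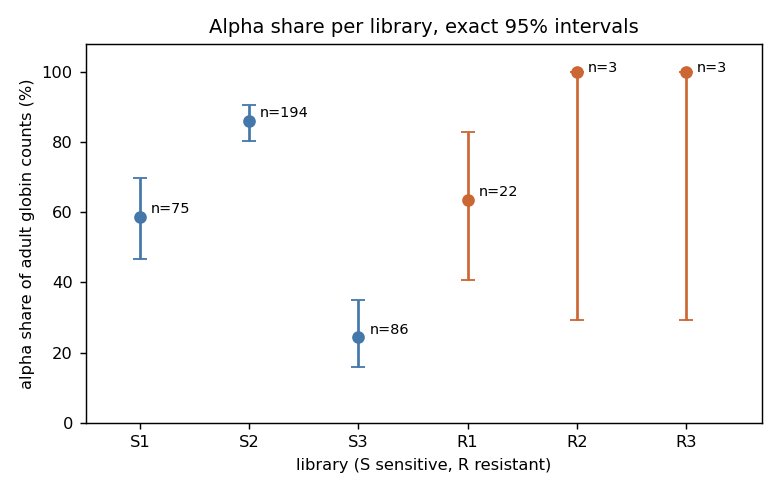
Share of the adult globin counts that came from the alpha genes (percent, vertical axis) in each library (S1 to S3 sensitive, blue, R1 to R3 resistant, orange), with exact 95% binomial intervals as bars and the number of globin counts as n. The sensitive libraries ran from 24.4% to 86.1% with intervals that did not overlap, and the resistant intervals were wide.

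The other erythroid members did not separate the groups. Alas2 (ENSMUSG00000025270), at chrX:150547375-150570638 on the plus strand of GRCm38, had 0.407, 0 and 0.389 CPM in the sensitive and 0.241, 0.101 and 0.156 CPM in the resistant libraries. The groups overlapped, since sensitive replicate 2 had no count, and the pooled ratio of 16 to 10 counts was 1.65 with a counting interval of 0.706 to 4.08. Of the 2403 exon bases of Alas2, 311 are shared with Apex2, which lies on the opposite strand. The strand setting of the counting is not given in the sources used here, so reads of both genes in these bases cannot be told apart. Apex2 had 151, 53 and 170 counts in the sensitive and 173, 134 and 161 counts in the resistant libraries. Whether Apex2 reads entered the Alas2 counts was not tested.

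Klf1 (ENSMUSG00000054191), at chr8:84901928-84905291 on the plus strand, was at a like level in both groups. It had 0.306, 0.795 and 0.292 CPM in the sensitive and 0.482, 0.455 and 0.364 CPM in the resistant libraries. All 3 resistant libraries lay within the sensitive range. Each group held 26 counts, and the ratio of 1.03 had a counting interval of 0.577 to 1.85. Slc4a1 (ENSMUSG00000006574), at chr11:102348824-102366203 on the minus strand, had 0 counts in all 6 libraries, which allows up to 0.0255 CPM over them together.

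Over the members, 3 of 7 (Hbb-bs, Hba-a1 and Hba-a2) had every resistant library below every sensitive library. Among 25074 genes with at least 10 counts, 3.63% did so. Because the members were chosen by this comparison, nothing is read from the share. At their nearest the groups differed by 15 against 14 counts for Hba-a1 and by 2 against 0 for Hba-a2. Those 2 counts lie under the 3 counts that a library at 0 allows, so the separation of Hba-a2 is uncertain. The filter on low counts kept 2 of the 7, Hbb-bs and Hba-a1, and both passed through their sensitive libraries. Their fitted log2 fold changes were -5.04 (SE 1.15) for Hbb-bs and -3.73 (SE 1.15) for Hba-a1, as a description. The value of Hba-a1 was -2.10 without sensitive replicate 2. Without resistant replicate 1 the resistant group held no Hbb-bs count, and the fitted value there, -8.09, is a fold against a group at 0 that depends on the fit's handling of zeros and is neither an estimate nor a bound.

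Per length, the globins did not rank high in either group. Hba-a1 averaged 4.86 ± 5.43 FPKM (SD, n = 3) in the sensitive group, rank 7234 of 30964 genes with a value above 0, and 0.404 ± 0.371 FPKM in the resistant group, rank 15248 of 29477. Hbb-bs averaged 2.241 ± 1.161 FPKM in the sensitive group, rank 10157. Klf1 averaged 0.303 ± 0.187 FPKM in the sensitive and 0.283 ± 0.0404 FPKM in the resistant group, and Alas2 0.111 ± 0.0958 and 0.0691 ± 0.0294 FPKM. In the sensitive group the order per length was Hba-a1, Hbb-bs, Hbb-bt (0.527 ± 0.328 FPKM), Hba-a2 (0.452 ± 0.307 FPKM), Klf1 and Alas2, with Slc4a1 at 0. Each neighbouring pair in this order differed by less than the larger of its SDs, apart from Hbb-bs and Hbb-bt and from Klf1 and Alas2. Summed alpha FPKM were 2.79, 11.8 and 1.34 in the sensitive libraries and summed beta FPKM 2.12, 2.01 and 4.17, so alpha was above beta in replicates 1 and 2 and below it in replicate 3.

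The remaining globin genes were nearly silent. Of 10 other globin genes listed, 8 had no count in any library: Hbb-bh0, Hbb-bh2, Hbb-bh3, Hbb-y, Hba-x, Hbq1a, Hbq1b and Hba-ps3, a set that holds the embryonic zeta-like Hba-x and epsilon-like Hbb-y. Hbb-bh1, an embryonic beta-like gene, had 1 count, in resistant replicate 2. The pseudogene Hba-ps4, at chr17:26286363-26287061, had 5, 0 and 4 counts in the sensitive and 1, 4 and 6 counts in the resistant libraries, and its groups overlapped.

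Beyond the globins, 70 further erythroid genes had been named in 5 lists, of which 67 had a row, 13 were at 0 in all libraries, 5 more had under 10 counts and 39 passed the filter. None of the 39 passed the test across 15474 genes (edgeR quasi-likelihood, Benjamini-Hochberg adjusted p of at least 0.940), as 0% of all genes did, whereas DESeq2 called 24 genes, none of them in these lists. At an unadjusted p under 0.05, edgeR counted 0 of the 39, against 3.08% of all genes tested. Their log2 fold changes were above 0 for 16 and below 0 for 23, with a median of -0.06, beside a median of 0.01 and 49.2% below 0 over all genes tested.

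Other genes that define erythroblasts and red cells were mostly at or near 0 in both groups. Hemgn, a nuclear protein of erythroid precursors, had 2 counts in resistant replicate 2 and none elsewhere. Epb42, Kel, Icam4, Car1 and Tspo2 had no count in any library. Gata1, the erythroid and megakaryocytic GATA factor, had 18, 20 and 2 counts in the sensitive and 11, 4 and 4 in the resistant libraries, and its groups overlapped (log2 fold change -1.27, SE 0.977).

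Heme synthesis genes were all measured and all 13 outside the members passed the filter, with 5 above and 8 below 0. Alas1, which encodes the housekeeping form of the enzyme that Alas2 encodes in erythroid cells, had 19.0, 16.3 and 12.4 FPKM in the sensitive and 18.6, 17.2 and 12.9 FPKM in the resistant libraries. The groups overlapped fully, and the log2 fold change was -0.04 (SE 0.239). Alas1 was 76.7 to 408 times Alas2 per length in the 5 libraries with an Alas2 count. Urod, uroporphyrinogen decarboxylase, had a log2 fold change of -0.64 (SE 0.486), with 91.9 CPM in sensitive replicate 2 and 32.2 to 39.9 CPM in the other libraries. Cpox, coproporphyrinogen oxidase, had 0.57 (SE 0.340) and Abcb10, a mitochondrial transporter, 0.32 (SE 0.331). The summed CPM of the heme synthesis list, Alas2 included, was 466 to 504 in the sensitive and 492 to 506 in the resistant libraries.

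In the membrane and skeleton list, 7 of 16 genes passed the filter, with 5 above and 2 below 0. Ank1, which encodes the ankyrin that ties band 3 to spectrin, had a log2 fold change of 0.63 (SE 0.632) and was lowest in sensitive replicate 2, at 8 counts against 46 to 78 elsewhere. Epb41, protein 4.1, had 0.26 (SE 0.371), and Gypc, glycophorin C, had -0.26 (SE 0.474). These genes are also used by other cell types, and none passed the test.

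Of the transcription factors other than Klf1, 8 of 11 passed the filter, with 2 above and 6 below 0. Nfe2, the large subunit of an erythroid and megakaryocytic factor, had 467, 786 and 40 counts in the sensitive and 246, 122 and 40 in the resistant libraries, a log2 fold change of -1.95 (SE 1.06). The summed CPM of 10 neutrophil markers was 4152, 6313 and 278 in the sensitive and 1737, 854 and 196 in the resistant libraries. Nfe2 and the neutrophil list were both highest in sensitive replicate 2 and both lowest in replicate 3 within each group. A link between them was not tested. Tal1, a partner of GATA1, had 3.82, 3.41 and 3.55 CPM in the sensitive and 2.61, 0.860 and 3.17 CPM in the resistant libraries, and a log2 fold change of -0.78 (SE 0.523). Zfpm1, which encodes the GATA1 cofactor FOG1, had 0.58 (SE 0.343).

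In the list of erythroblast and reticulocyte genes, 11 of 17 passed the filter, with 4 above and 7 below 0. Tfrc, the transferrin receptor that erythroblasts and other dividing cells use for iron uptake, had 157, 89.9 and 162 CPM in the sensitive and 168, 167 and 242 CPM in the resistant libraries (log2 fold change 0.45, SE 0.264). Epor, the erythropoietin receptor, had 64, 69 and 174 counts against 62, 72 and 71 (-0.66, SE 0.458), and its high value was sensitive replicate 3. Car2, carbonic anhydrase II, had 0.58 (SE 0.598) and Mkrn1 -0.38 (SE 0.299). Blvrb, biliverdin reductase B, had 206 to 245 CPM in the sensitive and 274 to 337 CPM in the resistant libraries (0.31, SE 0.213). Among the 39 tested genes the CPM of the groups did not overlap for Tal1, lower in the resistant libraries, and for Tfrc and Blvrb, higher there. Of the 15474 genes tested, 523 were lower and 776 higher in this way. Over the wider set of genes with at least 10 counts, 3.63% were lower and 4.31% higher. None of Tal1, Tfrc and Blvrb passed the test.

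**Figure D3:**
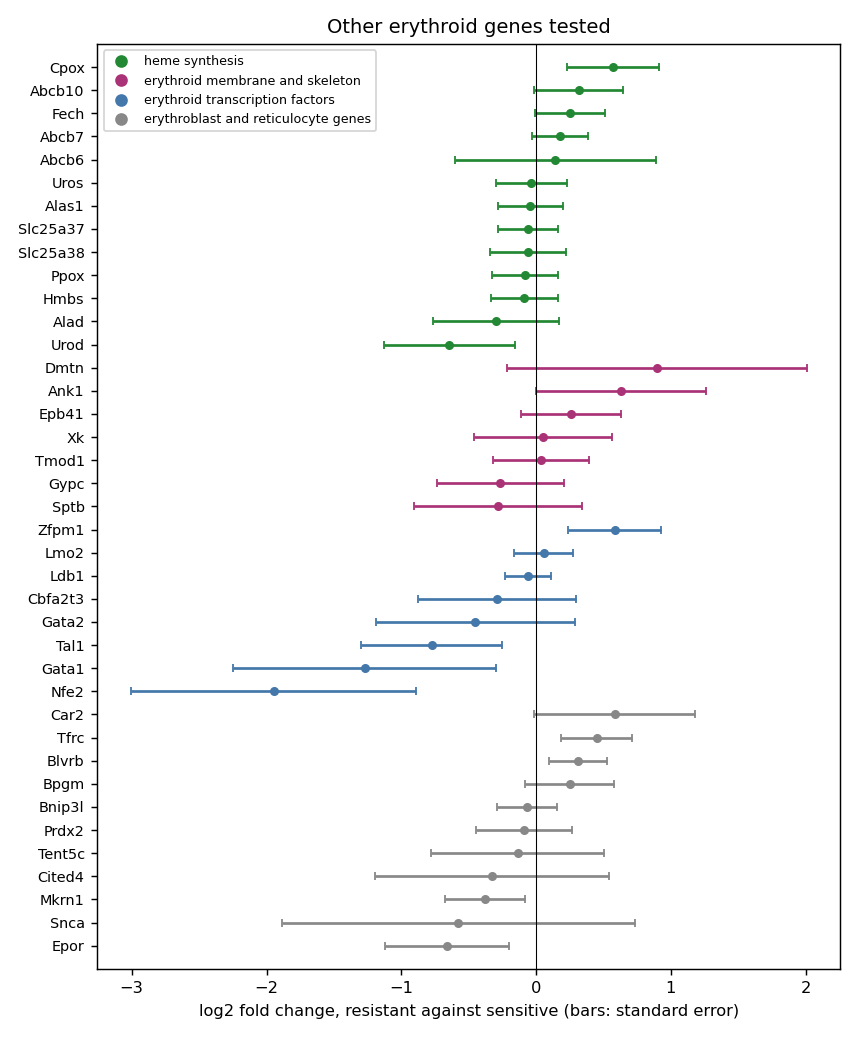
Log2 fold change of the resistant against the sensitive group (horizontal axis, edgeR) for the 39 tested erythroid genes outside the 7 members, as points with standard errors, coloured by list. The values ran from -1.95 (Nfe2) to 0.89 (Dmtn), and none passed the test across all genes.

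The libraries with more globin counts were compared with marker lists of other cell types, whose part in the globin values was not tested. The neutrophil list was at 278 to 6313 CPM in the sensitive and 196 to 1737 CPM in the resistant libraries, with all 10 markers detected. It overlapped between the groups. Sensitive replicate 2 was the highest library for both the globin sum and the neutrophil list. Resistant replicate 1 was the highest resistant library for both. Sensitive replicate 3, with 4.18 CPM of globins, had 278 CPM of neutrophil markers, while resistant replicate 1, with 1.06 CPM of globins, had 1737 CPM. A link between the globins and the neutrophil list was not tested. Platelet and megakaryocyte markers, 11 of 12 detected with Gp1bb at 0, summed to 500.5 to 794 CPM in the sensitive and 416 to 591 CPM in the resistant libraries. Clec1b, Pf4 and Itgb3 held most of each sum. The groups did not overlap for Itgb3 and for Gp9 (22, 13 and 13 against 5, 2 and 4 counts), both lower in the resistant libraries. The other detected markers overlapped, and 3.63% of all genes with at least 10 counts were lower without overlap. Macrophage and Kupffer cell markers, 18 of 18 detected, summed to 25390 to 39200 CPM against 28560 to 32060 CPM. Pan-endothelial markers, 14 of 14 detected, summed to 288 to 541 CPM against 83.4 to 450.1 CPM, with resistant replicate 2 lowest. The sum of the hepatocyte markers, 10 of 10 detected, was higher in each resistant library (338 to 498 CPM) than in each sensitive library (240.4 to 323 CPM). Taken singly, only Cyp3a11 did not overlap between the groups, and the others, Trf and Alb among them, did. Of all genes with at least 10 counts, 4.31% were higher without overlap. B, T and NK cell markers, 10 of 10 detected, summed to 16.9 to 25.5 CPM against 10.4 to 21.4 CPM.

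**Figure D4:**
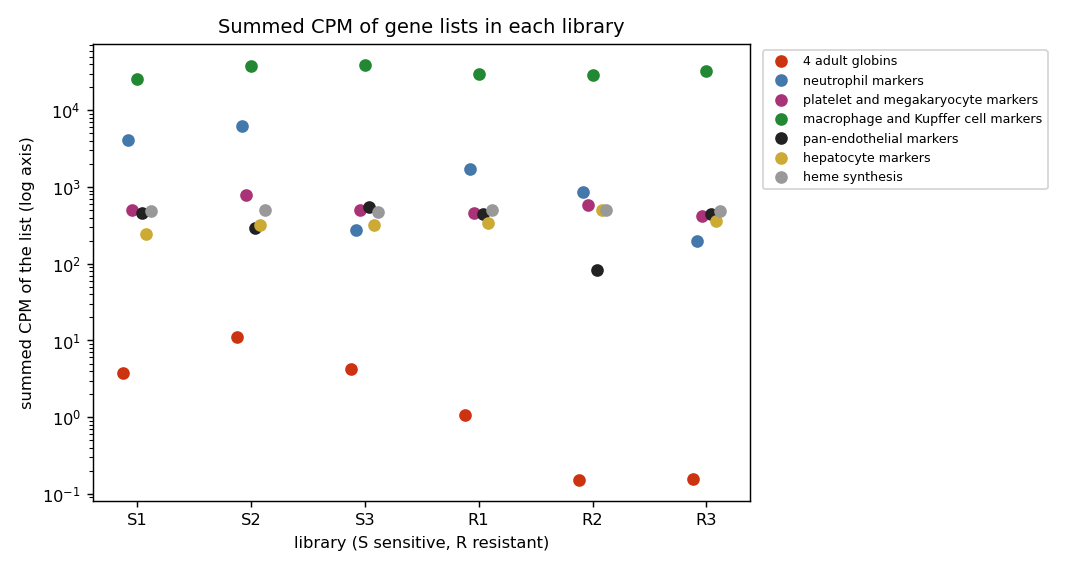
Summed CPM (log axis) of the 4 adult globins, of 5 marker lists and of the heme synthesis list in each library (S1 to S3 sensitive, R1 to R3 resistant), 1 point per list and library. The globins were lower in each resistant library. The hepatocyte sum, most of it from Trf, was higher in each resistant library, and the other lists overlapped between the groups.

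The genes whose levels were most like the mean profile of the 4 adult globins were Galnt15, Gm2629, Tmem63c, Gm9826 and Gm13994. Likeness was the root mean square difference of centred log2 CPM over the 6 libraries, and it was 0.270, 0.340, 0.342, 0.355 and 0.357 for them, against a median of 1.40 over 15472 candidate genes. Galnt15, which encodes a mucin-type glycosyltransferase, had 39, 59 and 29 counts in the sensitive and 12, 5 and 3 in the resistant libraries. Each of the 4 globins lay further from their mean profile than these 5 genes did. On the same measure Hba-a2 (0.559) would rank 45, Hbb-bs (0.735) 168, Hbb-bt (0.873) 415 and Hba-a1 (0.900) 492. The mean is thus no close description of any single globin. Klf1 (1.29) would rank 5212 and Alas2 (1.54) 10764, and Slc4a1 had no profile. Only 2 of the 5 genes were named again with a prior count of 0.5, so these names depend on how low counts are handled.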

How the data were processed

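RNA-seq was read in 6 libraries, and groups and replicate numbers were taken from the sample titles. Per the labels and the study's methods, total RNA was extracted with TRIzol and libraries were made with a NEBNext Ultra II kit. A poly(A) step and a depletion of ribosomal RNA are both named in the sources. The submitters' processing notes name HISAT2 2.0.5, featureCounts 1.5.0-p3, DESeq2 1.16.1 and edgeR, with the mouse build mm9. The authors deposited raw counts per gene, and FPKM values made from those counts, the library totals and 1 length per gene. A further table, not used here, holds the authors' own comparison (group means, fold changes and p-values).

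CPM were computed here from the deposited counts and library totals. The counts were compared in R 4.3.3 with edgeR 4.0.16 (filterByExpr, TMM, robust quasi-likelihood test, two-sided, no covariate, Benjamini-Hochberg threshold of 0.05). Log2 CPM for likeness used a prior count of 2. Ratios of pooled counts have exact conditional binomial intervals and shares have Clopper-Pearson intervals at 95%. The model was tested on simulated data. Total counts were 17599326 to 20726684 per library, which puts 3 counts at 0.145 to 0.170 CPM. Alternatives were run with DESeq2 1.42.0 and limma 3.58.1. Positions are of GRCm38 (GENCODE M21, which held 52083 of 55359 Ensembl identifiers) and promoters of RefSeq on GRCm38.p6 (6 of 7 members). Figures were drawn with matplotlib 3.10.9.

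The members, gene lists and tests were chosen with earlier results of these data known. Named genes were the 7 members, other globins with at least 10 counts, defining erythroid genes, per erythroid list up to 3 tested genes ranked by absolute log2 fold change (average log2 CPM 1 or more), and the 5 genes most like the globins. Other genes were named after their values were seen.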

Additional observations from a re-analysis of the deposited data

How the results depend on the processing

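The count of genes called was 0 with edgeR and stayed at 0 under the other alternatives, apart from 24 with the DESeq2 Wald test and 2 with no filter on low counts, and leaving out 1 library at a time gave 0 to 0. No erythroid gene outside the members was called under any alternative. The log2 ratio of mean summed globin CPM was -3.80. It was -3.97 with TMM scaling and -3.80 with FPKM, both chosen after seeing the data, while the planned limma fit on log2(FPKM + 1) was not run for the sum. Leaving out 1 library gave -5.37 to -3.13, with -5.37 without resistant replicate 1. Of the 5 genes most like the globins, 2 were named again with a prior count of 0.5 and 0 to 3 with a library left out. The log2(FPKM + 1) scale gave -1.56 for Hbb-bs and -1.67 for Hba-a1, as the pseudocount shrinks low values. No named gene outside the members passed the test, apart from Gm13994 with DESeq2 (-3.36). Signs turned for Alas1 (0.0246 with library totals alone, 0.0413 with no filter, 0.0298 with log2(FPKM + 1)). With a library left out, Alas1 ran from -0.194 to 0.107, Urod from -0.937 to 0.164, Epb41 from -0.0847 to 0.508, Gypc from -0.875 to 0.104 and Car2 from -0.122 to 0.945. The sign turned for Urod and Epb41 without sensitive replicate 2, for Gypc without resistant replicate 1 and for Car2 without resistant replicate 3, and for Alas1 without sensitive replicate 1, sensitive replicate 2 or resistant replicate 3. The cause was not tested.

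A fit with a replicate block called 0 genes, and Hbb-bs and Hba-a1 had log2 fold changes of -5.14 and -3.16. Deviations of same-numbered libraries correlated at -0.00, 0.03 and 0.19, so the numbers are not taken to pair the libraries. Depth limits the members: 3 to 194 globin counts per library lie behind each sum, and single-copy values in resistant libraries rest on 0 to 14 counts.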
